A study of Schizosaccharomyces pombe with 27 samples.

Results

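The stretches described here are the short gaps between strong replication origins of the fission yeast Schizosaccharomyces pombe, where a fork that leaves the left origin soon meets a fork that leaves the right one. They were chosen from the wild-type (WT) Pu-Seq tracks. Pu-Seq (polymerase usage sequencing) maps ribonucleotides that a mutated replicative polymerase leaves in DNA, here counted per strand in 300 bp bins. For each polymerase the track of a bin was the top strand count minus the bottom strand count, divided by their sum. The fork direction score was the Polε track minus the Polδ track minus the Polα track, divided by 3, so that a positive score stands for net rightward forks and a negative score for net leftward forks. A strong origin was the bin with the largest rise of the WT score within 15 bins on either side, with a rise of at least 0.8 between the means of the 8 bins before and the 8 bins after it. A short gap lay between neighbouring strong origins at most 25 kb apart, and 1.5 kb was trimmed at each end. The rule found 247 strong origins and 244 gaps, of which 60 were short and 184 longer. The short gaps held 2993 of the 41908 bins of the genome.

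DNA polymerase ε (Polε) synthesises most of the leading strand, DNA polymerase δ (Polδ) most of the lagging strand, and DNA polymerase α (Polα) starts each Okazaki fragment. Ribonucleotides of Polε and of Polδ therefore change strand where forks change direction: abruptly at an efficient origin, gradually where forks converge. Across a gap bounded by active origins the score falls through 0, and the place of the crossing is the average position at which forks meet over many cells.

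The libraries came from 9 strains in exponential growth in YES medium without treatment. They form a series of Polδ gene copy number: WT, 2×Polδ with 1 extra cassette of the 4 Polδ subunit genes (cdc1, cdc6, cdc27 and cdm1), and 4×Polδ with 3 extra cassettes at separate sites of chromosome I. All strains lacked rnh201, which encodes the catalytic subunit of the ribonuclease that removes genomic ribonucleotides, and each carried 1 mutated polymerase: cdc20-M630F (Polε), cdc6-L591G (Polδ, in every copy of cdc6) or pol1-L850F (Polα). Every score therefore joins 3 strains, each a clonal line, and each strain was measured in 2 experiments. A library held 16062711 to 43905303 counts, and the median bin of the short gaps held 370 to 994. The WT Polε library of experiment 2 had the lowest track heights of all 6 Polε libraries, and the 2×Polδ Polα library of experiment 1 the highest of the 6 Polα libraries; both recur below. In the 4×Polδ strain with mutated Polδ, a segment of chromosome II (4161001 to 4218000) had 1.90 and 1.96 times the WT count in experiments 1 and 2, and it overlaps 1 short gap of 23.4 kb.

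The 60 short gaps measured 5.7 to 24.9 kb between origin bins, with a median of 20.25 kb and 1095.9 kb in sum. Chromosome I had 23 of them, chromosome II 18 and chromosome III 19, which is 21.5%, 22.5% and 33.3% of the gaps of each chromosome. Their ends were set by 104 strong origins, of which 16 bounded a short gap on both sides. At the limit of length, the last gaps inside measured 24.6, 24.9 and 24.9 kb and the first outside 25.2, 26.1 and 26.1 kb. At the limit of the step, origins just over it rose by 0.8074 to 0.8087 and candidates just under it by 0.7904 to 0.7958. Origins called in the same way from 2×Polδ tracks bounded 74 short gaps and refound 59 of the 60 to within 1.5 kb at both ends. Origins called from 4×Polδ tracks bounded 67 and refound all 60. Within the WT libraries alone, experiment 1 gave 68 short gaps and experiment 2 gave 44.

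The origins themselves are AT-rich, as is known for S. pombe, and the short gaps between them are not. Origin bins that bound short gaps had a mean GC content of 24.9%, against 37.0% in the bins of short gaps, 36.3% in the bins of longer gaps and 36.1% over the genome. Protein-coding genes covered 78.5% of the bases in short gaps and 79.7% in longer gaps. A protein-coding gene was read in the same direction as the prevailing WT fork in 215 of 379 genes of the short gaps (56.7%) and in 2290 of 4378 genes of the longer gaps (52.3%). There were 7 tRNA genes in short gaps, 0.780 per 100 kb, and 120 in longer gaps, 1.14 per 100 kb. The mean meeting point of WT forks fell inside a protein-coding gene in 52 of the 60 short gaps, inside another annotated gene in 6 and outside all genes in 2. Repeated genes (Tf2 retrotransposons, wtf genes or ribosomal RNA genes), whose reads can map to several places, lay in 8 of the short gaps. These values are counts over one genome and carry no test.

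Net fork direction turned from rightward to leftward in every short gap. A straight line fitted to the score over the bins of a gap fell and crossed 0 between the origins in 60 of 60 short gaps, in each of the 6 combinations of genotype and experiment, and in 179 of 184 longer gaps. The median slope over the short gaps was -0.0827 and -0.0697 score units per kb for WT (experiments 1 and 2), -0.0939 and -0.0886 for 2×Polδ, and -0.0809 and -0.0799 for 4×Polδ. The longer gaps had median slopes of -0.0241 and -0.0215 for WT, -0.0254 and -0.0241 for 2×Polδ, and -0.0235 and -0.0234 for 4×Polδ. The WT values describe the tracks that chose the gaps. Means over the 2 experiments were -0.0762 ± 0.0092 in WT, -0.0912 ± 0.0038 in 2×Polδ and -0.0804 ± 0.0007 in 4×Polδ (SD, n = 2).

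**Figure D1:**
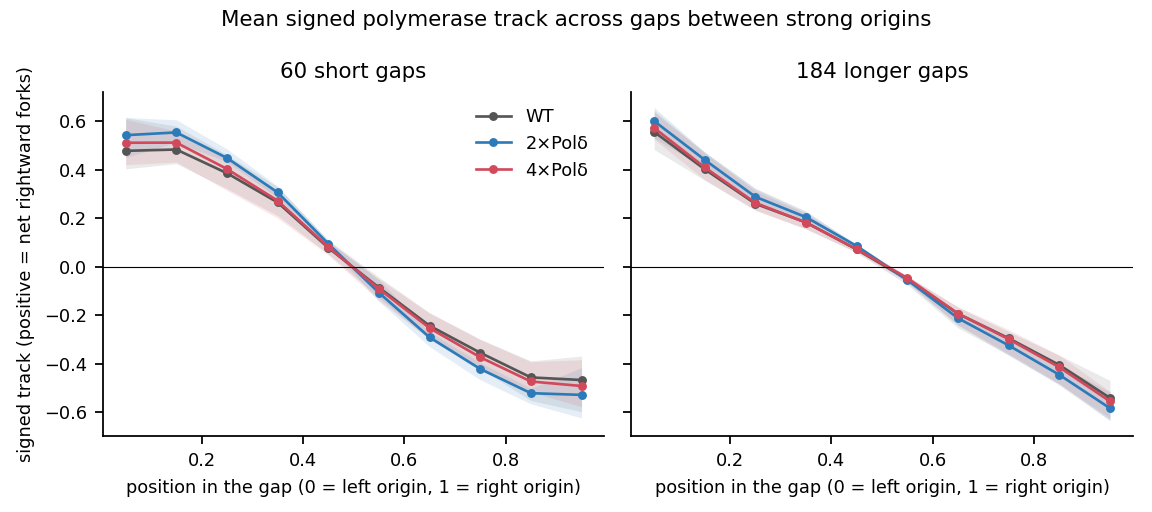
Mean signed track (y axis, positive for net rightward forks, no unit) by position in the gap (x axis, 0 at the left and 1 at the right origin) for the 60 short gaps (left) and the 184 longer gaps (right). Lines are means over the 6 libraries of a genotype (3 polymerases, 2 experiments) and bands their range; all curves cross 0 near the middle, and those of the short gaps flatten towards both origins.

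Forks turned over a shorter distance in the short gaps, as the distance between their origins fixes in large part. In each of the 12 libraries of 2×Polδ and 4×Polδ, none of which chose the gaps, the median slope of the library's own track was steeper in the short gaps, by -0.0611 ± 0.0090 units per kb (SD over 12 libraries, two-sided exact sign-flip permutation test, p = 0.000488, the smallest this design gives). Against the longer gaps of 25 to 50 kb only, the difference was -0.0439. The test speaks of the same gaps measured in 12 libraries, not of independent regions. Its direction was largely set beforehand by the split by length, since the origins of both kinds of gap passed the same limit of the step. Each strain gave 2 of the libraries, 1 per experiment, so they are not 12 independent units. With experiment 2 alone, 1 library per strain, the difference was negative in 6 of 6 libraries (exact sign-flip permutation test, p = 0.03125, the smallest possible).

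Slope followed length within the short gaps as well. In the 5 gaps of up to 10 kb the median slope was -0.193 and -0.230 for WT, -0.236 and -0.196 for 2×Polδ, and -0.195 and -0.201 for 4×Polδ. In the 32 gaps of 20 to 25 kb it was -0.0697 and -0.0597 for WT, -0.0769 and -0.0735 for 2×Polδ, and -0.0673 and -0.0690 for 4×Polδ. Across the 60 gaps Spearman's rho between length and slope was 0.79 for WT, 0.80 for 2×Polδ, and 0.80 for 4×Polδ, a description over gaps that share all their libraries.

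The change of the track between the trimmed ends of a gap was smaller in the short gaps. It was compared over the 59 short gaps of at least 10 bins as the mean track at the left end minus that at the right end. In the 12 libraries of 2×Polδ and 4×Polδ it came to 0.920 to 1.27 in short gaps and 1.14 to 1.43 in longer gaps, a difference of -0.202 ± 0.0446 (SD) that was negative in 12 of 12 libraries (exact sign-flip permutation test, p = 0.000488, the smallest possible). In the 6 WT libraries the same difference ran from -0.319 to -0.180. Here too each strain gave 2 of the 12 libraries. Experiment 2 alone gave -0.195, negative in 6 of 6 libraries (exact sign-flip permutation test, p = 0.03125, the smallest possible). This comparison was added after the profiles had been seen. The ends were read inside the 1.5 kb trim, so the change next to each origin was left out. That is a larger share of a short gap than of a longer one, and the lines of short gaps are steeper. The trim thus favours a smaller change in short gaps by itself, and how much of the difference it sets was not tested.

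At single origins, too, the track was lower on the side that faces a short gap. It was measured 0.9 to 3 kb from the origin at the 88 origins that bound a short gap on 1 side only. In the 12 libraries of 2×Polδ and 4×Polδ the mean height was 0.420 to 0.590 on the side facing the short gap and 0.622 to 0.739 on the side facing away. The difference was -0.167 ± 0.033 (SD), negative in 12 of 12 libraries (two-sided exact sign-flip permutation test, p = 0.000488, the smallest possible). Polε tracks gave -0.192 to -0.188, Polδ tracks -0.137 to -0.122 and Polα tracks -0.218 to -0.145. The side facing the short gap was nevertheless the higher one at 16 to 30 of the 88 origins, depending on the library. On the side facing a short gap the track must reach 0 within a shorter distance. The choice of sides thus favours a lower height there by itself. In the shortest gap the measured stretch reached past the WT meeting point, 2.79 kb from the left origin. Restricted to gaps of at least 12 kb, the difference was -0.141, again negative in 12 of 12 libraries. How much of it the choice of sides sets was not tested. As above, each strain gave 2 of the libraries. Experiment 2 alone gave -0.166, negative in 6 of 6 libraries (exact sign-flip permutation test, p = 0.03125, the smallest possible).

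**Figure D2:**
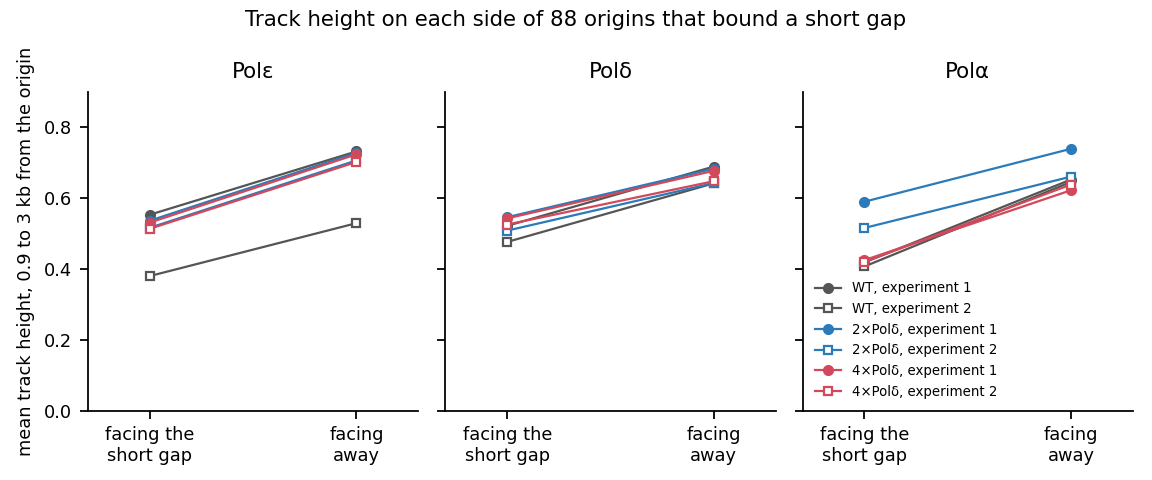
Mean track height 0.9 to 3 kb from the origin (y axis, no unit) on the side facing the short gap (left) and facing away (right), over 88 origins, one panel per polymerase. Each line is 1 library, filled circles for experiment 1 and open squares for experiment 2; all 18 lines lie lower on the side facing the short gap, and the WT Polε library of experiment 2 (0.380 and 0.529) lies below the other Polε libraries.

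The median slope of the score was not ordered by copy number: 2×Polδ had the steepest median line and WT and 4×Polδ lay close together. With 2 experiments per genotype the exact permutation test cannot go below p = 0.333, and it gave 0.333 for 4×Polδ against 2×Polδ, 1.0 for 4×Polδ against WT and 0.333 for 2×Polδ against WT. The polymerases did not share the difference. Polα tracks had median slopes in the short gaps of -0.0660 and -0.0679 for WT, -0.0991 and -0.0869 for 2×Polδ, and -0.0638 and -0.0699 for 4×Polδ. Polε tracks had -0.0896 and -0.0650 for WT, -0.0869 and -0.0850 for 2×Polδ, and -0.0851 and -0.0862 for 4×Polδ, where the flattest is WT of experiment 2. Polδ tracks had -0.0874 and -0.0837 for WT, -0.0927 and -0.0861 for 2×Polδ, and -0.0923 and -0.0899 for 4×Polδ. The Polδ tracks of experiment 2 steepened in the order of copy number, while in experiment 1 those of 2×Polδ and 4×Polδ were both steeper than WT and close to each other. Gap by gap, limma called a changed slope in 0 of 60 short gaps and 0 of 244 gaps (0.0%) in each contrast at an adjusted p under 0.05, while an unadjusted p under 0.05 was met by 16 short gaps in 4×Polδ minus 2×Polδ (31 of all gaps, 12.7%), 2 in 4×Polδ minus WT (4 of all, 1.64%) and 37 in 2×Polδ minus WT (60 of all, 24.6%). The size of the last contrast depended on the WT experiment used. Without WT experiment 1 the median difference of 2×Polδ minus WT was -0.0152 units per kb in short gaps and -0.00494 over all gaps. Without WT experiment 2, which holds the Polε library with the lowest track heights, it was -0.00752 and -0.00140.

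The extremes show the range. The shortest gap, 5.7 kb on chromosome I (3404701 to 3410700), had slopes of -0.193 and -0.230 for WT, -0.236 and -0.196 for 2×Polδ, and -0.195 and -0.201 for 4×Polδ, and WT forks met 49.0% of the way across it, where the genes bop1 and SPOM_SPAP32A8.02 overlap. The steepest line belonged to a gap of 6.6 kb on chromosome III (1410301 to 1417200) that holds hta1 and htb1, which encode histones H2A and H2B, and sec5, a subunit of the exocyst complex of secretion. Its slopes were -0.355 and -0.284 for WT, -0.398 and -0.338 for 2×Polδ, and -0.359 and -0.310 for 4×Polδ, and forks met inside sec5 in WT, 3.38 and 3.40 kb from the left origin. The next, 7.8 kb on chromosome I (4018801 to 4026900), contains the retrotransposon Tf2-6 and had WT slopes of -0.277 and -0.246. The flattest line, -0.0151 and -0.0216 for WT, -0.0251 and -0.0265 for 2×Polδ, and -0.0170 and -0.0186 for 4×Polδ, belonged to a gap of 16.5 kb on chromosome I (1079101 to 1095900) whose left origin rose by 0.846 and right origin by 0.941, both near the limit of the rule. The longest members, 24.9 kb each on chromosome III, had WT slopes of -0.0699 and -0.0621 (207001 to 232200) and of -0.0930 and -0.0828 (1370701 to 1395900), the second with its meeting point in emc4, which encodes a subunit of the ER membrane protein complex. The gap just outside the limit, 25.2 kb, had -0.0746 and -0.0658 and so fell among them.

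Forks met near the middle of most short gaps. In WT the meeting point lay 26.2% to 82.7% of the way from the left to the right origin, with a median of 51.2%, and between 33.3% and 66.7% in 52 of 60 gaps. The median distance from the exact middle was 1.22 kb for WT, 0.980 kb for 2×Polδ, and 1.10 kb for 4×Polδ. In 2×Polδ the meeting point ranged from 28.1% to 76.2% and fell within that middle part in 52 gaps, and in 4×Polδ it ranged from 25.8% to 82.2% and did so in 51.

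Where the origins of a gap differed in step, forks more often met nearer the one with the smaller step. The step was that of WT and the meeting point was taken from libraries that did not choose the gaps. The measures are still not independent. The step covers 2.4 kb on each side of an origin, and the line that gives the meeting point starts 1.5 kb inside the gap. Some positions therefore enter both, and meeting points repeated closely between genotypes. Whether origin strength sets the meeting point was not tested. In the 31 gaps with the larger step on the left, forks met right of the middle in 22 in 2×Polδ and 24 in 4×Polδ. In the 29 gaps with the larger step on the right, they met left of the middle in 18 in 2×Polδ and 16 in 4×Polδ. Across the 60 gaps the difference in step and the meeting point correlated with Pearson's r of 0.57 in 2×Polδ (Spearman's rho 0.61) and 0.54 in 4×Polδ (rho 0.56), given as a description because gaps share their libraries and 16 origins serve 2 gaps. The gap with its WT meeting point farthest to the left, 26.2% of the way across 18.3 kb on chromosome III (2363701 to 2382300), had a left origin with a step of 0.831 and a right origin with 1.22.

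Meeting points repeated closely in most short gaps between experiments and between genotypes. The median absolute difference between experiments was 0.233 kb for WT, 0.0849 kb for 2×Polδ, and 0.139 kb for 4×Polδ, less than the width of a bin. The largest in any gap was 1.78 kb for WT, 0.681 kb for 2×Polδ, and 1.80 kb for 4×Polδ. Between genotypes the median absolute difference was 0.153 kb for 4×Polδ and 2×Polδ, 0.130 kb for 4×Polδ and WT, and 0.234 kb for 2×Polδ and WT. In that order, 47, 50 and 43 of the 60 gaps lay within 0.5 kb. The polymerases within a genotype differed more: the meeting points of Polδ and Polε tracks, which come from different strains, had a median absolute distance of 0.851 kb for WT, 0.643 kb for 2×Polδ, and 0.770 kb for 4×Polδ, with medians of the signed difference of 0.150, -0.0715 and -0.129 kb.

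**Figure D3:**
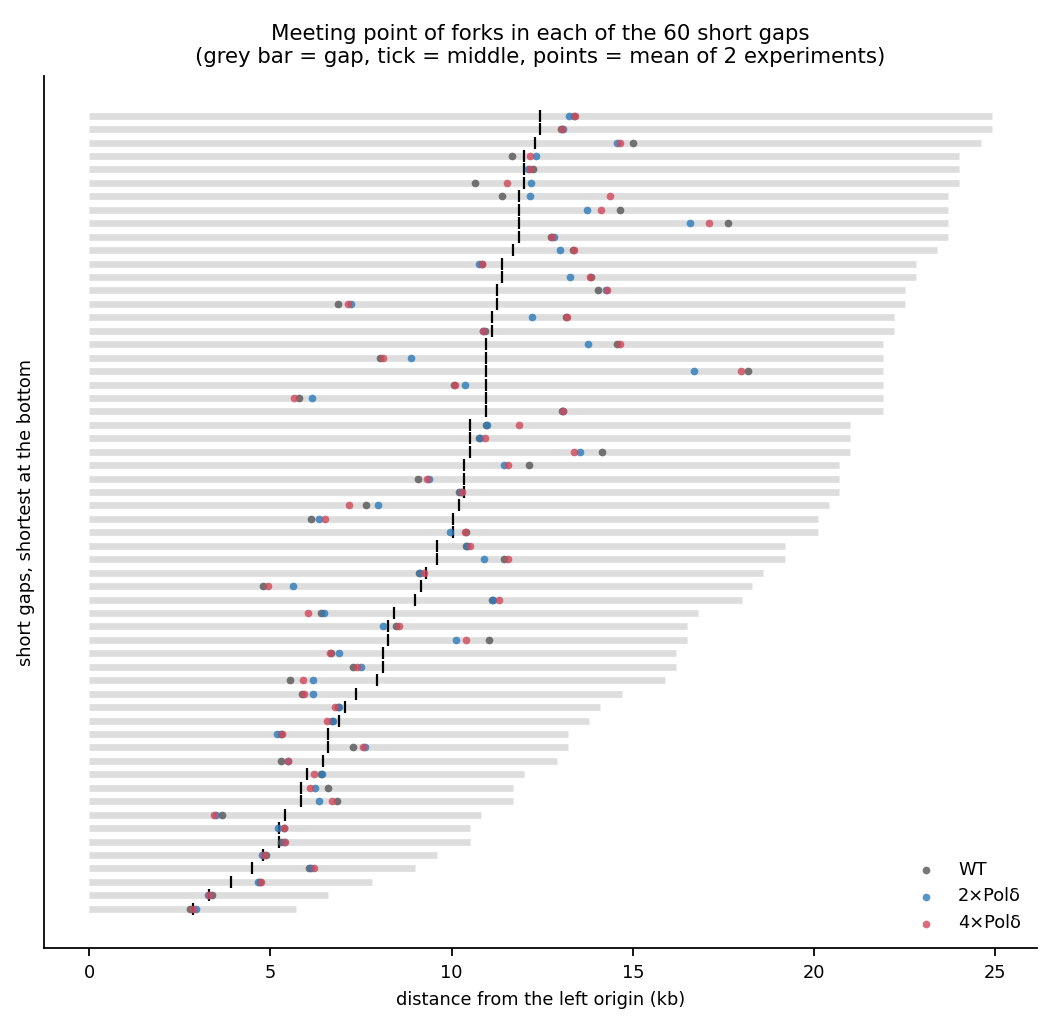
Meeting point of forks in each of the 60 short gaps (rows, shortest at the bottom) in kb from the left origin (x axis). Grey bars span the gaps, black ticks mark their middles and coloured points give each genotype's mean over its 2 experiments; the points of a gap mostly overlap, with 47 of 60 gaps within 0.5 kb between 4×Polδ and 2×Polδ.

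Tested across all 239 gaps whose 6 lines crossed 0 inside (limma, adjusted p under 0.05), the meeting point of 4×Polδ differed from that of 2×Polδ in 5 of the 60 short gaps, against 45 of all gaps (18.8%). Between 4×Polδ and WT it differed in 4 short gaps, against 19 of all (7.95%), and between 2×Polδ and WT in 5, against 48 of all (20.1%). WT values chose the gaps, so the contrasts with WT share the rule's data. With the experiment number as a block, which pairs the libraries, 13 short gaps were called between 4×Polδ and 2×Polδ (33.1% of all gaps) and 19 between 2×Polδ and WT (39.7% of all). The median shift of the short gaps was 0.0291 kb in 4×Polδ minus 2×Polδ, beside 0.00228 kb over all gaps tested. When the meeting point was instead taken as the peak of the running sum of the score, 0 of the called short gaps remained in any contrast. Without 10 bins that hold copied sequence (described below), 4×Polδ minus WT had 0 calls among the short gaps (4 of all gaps, 1.67%) and 2×Polδ minus WT 8 (52 of all, 21.8%). These bins lie in the cdc1 gap only. The other short gaps called in 4×Polδ minus WT, those with krp1, srp2 and cox1101 below, kept their values. Their limma adjusted p of 0.0492 passed the threshold narrowly, and without the 10 bins the lowest of any short gap was 0.0514. With 2×Polδ experiment 1 or 2 left out, 0 short gaps and 2 to 5 of all gaps were called in 4×Polδ minus 2×Polδ and in 2×Polδ minus WT. With 4×Polδ experiment 1 or 2 left out, 4×Polδ minus 2×Polδ had 1 and 0 calls, and 4×Polδ minus WT had 1 or 2 calls whichever value was left out.

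The mean score over a gap, a measure of the balance of rightward and leftward forks, gave few calls without the experiment block and more with it. It differed between 4×Polδ and 2×Polδ in 1 of 60 short gaps, against 3 of 244 gaps (1.23%), between 4×Polδ and WT in 6, against 13 (5.33%), and between 2×Polδ and WT in 3, against 6 (2.46%). WT scores chose the gaps, so contrasts of the mean score with WT share the rule's data, as do those of slopes and windows. With the experiment as a block the paired fit called 7 short gaps between 4×Polδ and 2×Polδ (5.74% of all gaps) and 14 between 2×Polδ and WT (13.9% of all). In the unblocked fits 7 short gaps had a changed score, 9 a changed meeting point and 5 both, 11 gaps in all. The adjusted p-values given below for single gaps and windows come from the unblocked fits. Scores without the Polα tracks left 0 of the 3 calls between 2×Polδ and WT. With any 1 experiment of 2×Polδ or 4×Polδ left out, 0 short gaps were called in 4×Polδ minus 2×Polδ and in 2×Polδ minus WT, beside 1 of all gaps, and 1 in 4×Polδ minus WT, beside 3 or 4 of all gaps.

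The largest of the called shifts was in a gap of 23.7 kb on chromosome I (3995101 to 4019100) that holds the native copy of cdc1, which encodes the small Polδ subunit carried by every extra cassette. Of the 4 Polδ genes, cdc20, pol1, rnh201 and ura4, cdc1 is the only one that lies in a short gap. The gap also holds the retrotransposon Tf2-5, yih1, mug155 and msm1. Forks met 11.29 and 11.46 kb from the left origin for WT, 12.01 and 12.32 kb for 2×Polδ, and 14.12 and 14.59 kb for 4×Polδ, so that no genotype overlapped another. The difference was 2.20 kb between 4×Polδ and 2×Polδ (SE 0.215, limma adjusted p = 0.0104) and 2.98 kb between 4×Polδ and WT (adjusted p = 0.00323). The mean score was -0.0328 and -0.0198 for WT, 0.0074 and 0.0210 for 2×Polδ, and 0.0673 and 0.0827 for 4×Polδ, and 4×Polδ minus 2×Polδ was 0.0608 (adjusted p = 0.0446).

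The shift changed when the bins that the cassettes copy were left out. Total counts (both strands, edgeR over 41859 bins) differed in 4 bins of short gaps between 4×Polδ and 2×Polδ (32 of all bins, 0.0764%), in 10 between 4×Polδ and WT (52 of all, 0.124%) and in 8 between 2×Polδ and WT (36 of all, 0.086%), and all of them were among the 10 bins from 4014301 to 4017300, over cdc1 (4015050 to 4016557) and its flanks. The limits of these 10 bins were the first and last called bin of the gap, not a map of the cassettes. Their right end is also the trimmed end of the gap. With the experiment as a block 8 bins of short gaps were called between 4×Polδ and 2×Polδ (0.119% of all bins). The bin from 4015501 to 4015800, inside cdc1, had a log2 fold change of 1.86 in 4×Polδ against WT (adjusted p = 6.18e-08) and of 1.14 in 2×Polδ against WT (adjusted p = 0.000145). Over the 10 bins, counts relative to library size were 1.75 to 2.40 times those of WT in the 2×Polδ libraries and 2.45 to 4.22 times in the 4×Polδ libraries. The Polε track there was -0.677 and -0.411 for WT, 0.0136 and -0.0558 for 2×Polδ, and 0.324 and 0.227 for 4×Polδ. Reads of the native copy and of the cassettes, which lie elsewhere on chromosome I, cannot be told apart by position.

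In windows of 3 kb, tested by edgeR for the strand ratio over all 3 polymerases, the window from 4014001 to 4017000 was the only one called in a short gap between 4×Polδ and 2×Polδ (29 of 4189 windows, 0.692%) and between 4×Polδ and WT (65 of 4189, 1.55%). Its score was -0.648 and -0.555 for WT, -0.227 and -0.189 for 2×Polδ, and 0.0703 and 0.116 for 4×Polδ. The strand ratio changed by 0.90 (log2) in 4×Polδ against 2×Polδ (adjusted p = 0.0191), by 2.36 in 4×Polδ against WT (adjusted p = 3.19e-07) and by 1.46 in 2×Polδ against WT (adjusted p = 0.000218). One other short-gap window was called between 2×Polδ and WT (29 of 4189, 0.692%), towards the right end of the cox1101 gap described below, at -0.55 (adjusted p = 0.0289). Without the 10 copied bins the cdc1 gap had its meeting point at 11.8 and 11.9 kb for WT, 11.1 and 11.3 kb for 2×Polδ, and 11.8 and 11.9 kb for 4×Polδ, and 4×Polδ minus WT was -0.0139 kb (limma adjusted p = 0.966). Between 4×Polδ and 2×Polδ a difference of 0.656 kb remained (adjusted p = 0.0257). The difference of 2×Polδ minus WT, 0.786 kb over all bins (adjusted p = 0.0700), was -0.670 kb without the copied bins (adjusted p = 0.0188), so 2×Polδ then met to the left of both others. The mean score passed the test in no contrast without these bins, with adjusted p of 0.144, 0.955 and 0.136 for 4×Polδ minus 2×Polδ, 4×Polδ minus WT and 2×Polδ minus WT.

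**Figure D4:**
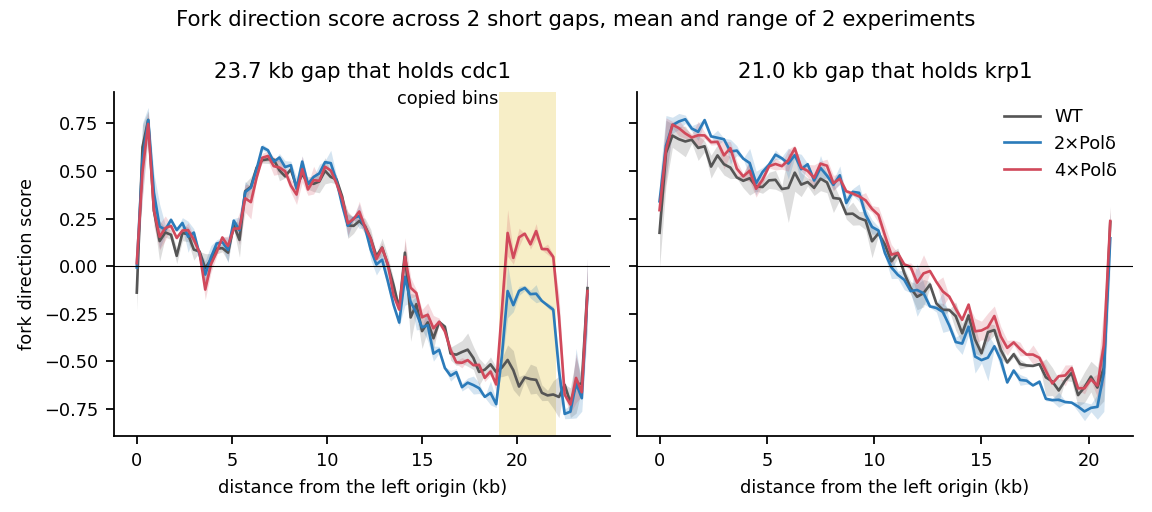
Fork direction score (y axis, no unit) by distance from the left origin in kb (x axis) in the 23.7 kb gap with cdc1 (left) and the 21.0 kb gap with krp1 (right). Lines are means and bands ranges of 2 experiments; averaged over the 10 shaded bins, copied in the cassettes, the score was -0.659 and -0.541 for WT, -0.216 and -0.177 for 2×Polδ, and 0.0581 and 0.109 for 4×Polδ, while in the krp1 gap the 4×Polδ line crosses 0 to the right of both others.

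Another shift with 4 copies lay in a gap of 21.0 kb on chromosome I (5024401 to 5045700) whose WT meeting point falls in krp1, which encodes a kexin-like processing protease, among rna1, rrn10, set3, sck2 and 5 other named genes. Forks met at 11.10 and 10.82 kb for WT, 10.99 and 10.96 kb for 2×Polδ, and 11.97 and 11.73 kb for 4×Polδ, above all the other values. The difference was 0.870 kb between 4×Polδ and 2×Polδ (limma adjusted p = 0.0250) and 0.886 kb between 4×Polδ and WT (adjusted p = 0.0492). It was not shared by the 3 strains of 4×Polδ. The Polε track crossed 0 at 12.3 and 12.2 kb in 4×Polδ, against 11.1 and 11.1 kb in 2×Polδ and 11.1 and 10.8 kb in WT. The Polα track crossed at 13.2 and 12.6 kb in 4×Polδ, against 10.9 and 10.9 kb in 2×Polδ and 11.3 and 10.9 kb in WT. The Polδ track crossed at 10.99 and 10.76 kb in 4×Polδ, 10.99 and 10.87 kb in 2×Polδ, and 10.95 and 10.79 kb in WT, values that overlapped at all copy numbers. No cassette site named for these strains lies in this gap, and total counts changed in none of its bins.

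In the gap of 18.3 kb on chromosome III with the WT meeting point farthest to the left, 2×Polδ stood apart. Forks met at 4.67 and 4.92 kb for WT, 5.72 and 5.53 kb for 2×Polδ, and 4.92 and 4.96 kb for 4×Polδ. The difference was -0.685 kb between 4×Polδ and 2×Polδ (adjusted p = 0.0336) and 0.832 kb between 2×Polδ and WT (adjusted p = 0.0157). The Polα track carried most of it, with crossings at 6.06 and 6.12 kb in 2×Polδ against 3.10 and 3.44 kb in WT, while the Polε track crossed at 4.17 and 3.77 kb in 2×Polδ against 4.84 and 5.38 kb in WT, the other way.

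The remaining called gaps moved by less than 1 kb. In the gap of 20.4 kb on chromosome I (3300301 to 3321000) with glt1, which encodes glutamate synthase, forks met at 7.66 and 7.60 kb for WT, 8.04 and 7.90 kb for 2×Polδ, and 7.36 and 6.98 kb for 4×Polδ, with -0.804 kb between 4×Polδ and 2×Polδ (adjusted p = 0.0351). One of the sites at which 4×Polδ but not 2×Polδ carries a cassette lies just beyond the right origin of this gap, and its part in the shift was not tested. In the gap of 16.8 kb with tom22, which encodes a subunit of the protein import pore of mitochondria, forks met at 6.45 and 6.37 kb for WT, 6.47 and 6.48 kb for 2×Polδ, and 6.03 and 6.05 kb for 4×Polδ, with -0.440 kb between 4×Polδ and 2×Polδ (adjusted p = 0.0409). The leftward shifts of these gaps were present in both experiments.

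In 4 gaps of chromosome I both copy numbers lay on the same side of WT. Forks met in the gap of 24.0 kb with srp2, an SR-type splicing factor gene, at 11.7 and 11.6 kb for WT, 12.3 and 12.3 kb for 2×Polδ, and 12.1 and 12.2 kb for 4×Polδ (2×Polδ minus WT 0.658 kb, adjusted p = 0.0120; 4×Polδ minus WT 0.504 kb, adjusted p = 0.0492). In the gap of 21.0 kb with cox1101, named for the cytochrome c oxidase assembly factor Cox11, they met at 14.0 and 14.3 kb for WT, 13.5 and 13.6 kb for 2×Polδ, and 13.4 and 13.4 kb for 4×Polδ, where 2×Polδ minus WT was -0.624 kb (adjusted p = 0.0404) and 4×Polδ minus WT -0.776 kb (adjusted p = 0.0492). A gap of 15.9 kb that holds cbf5, which encodes a pseudouridine synthase, moved right in 2×Polδ by 0.635 kb (adjusted p = 0.0140). A gap of 20.7 kb that holds cdc24, a replication factor gene, moved left in 2×Polδ by -0.681 kb (adjusted p = 0.0456), and its mean score was 0.102 and 0.105 for WT, 0.0721 and 0.0677 for 2×Polδ, and 0.0748 and 0.0851 for 4×Polδ. The 4×Polδ libraries and the 2×Polδ libraries are set against the same WT libraries here, so that a deviation of WT moves both differences.

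A further 2 members had a changed score without a changed meeting point, both in contrasts with WT, whose scores chose the gaps. In the histone gap of chromosome III the score was 0.0267 and 0.0274 for WT, -0.0021 and -0.0059 for 2×Polδ, and -0.0006 and 0.0016 for 4×Polδ, which is -0.0311 in 2×Polδ minus WT (limma adjusted p = 0.0382) and -0.0266 in 4×Polδ minus WT (adjusted p = 0.0411). In a gap of 11.7 kb on chromosome I with toe4 at the meeting point it was 0.0840 and 0.0734 for WT, 0.0586 and 0.0380 for 2×Polδ, and 0.0351 and 0.0220 for 4×Polδ, with 4×Polδ minus WT of -0.0501 (adjusted p = 0.0456).

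Total counts bore on another question, whether the share of Polδ is higher where forks meet. They were not used by the rule. Polδ counts were set over the Polε counts of the same genotype and experiment. For the meeting point, counts were first summed over all bins within 1.5 kb of it in WT, across 59 gaps. The other bins of these gaps were summed likewise, so bins with high counts weigh most. For short against longer gaps, the ratio was taken for each bin, each count relative to its library's median bin. The ratio thus compares libraries of 2 different strains. Bins around the meeting point had a log2 ratio higher than the other bins of the same gaps by 0.04 ± 0.08 (SD, n = 6 pairs of libraries), with 4 of 6 pairs above 0 (two-sided exact sign-flip permutation test, p = 0.3125). The pairs gave -0.09 and 0.10 for WT, 0.02 and 0.14 for 2×Polδ, and -0.0044 and 0.05 for 4×Polδ, experiment 2 the higher one each time. With the centre put at the middle of the gap the mean was 0.13, above 0 in 6 of 6 pairs (p = 0.03125 by the same exact test), and as a median over gaps it was -0.04 (exact p = 0.0625), so that neither direction nor call held.

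The short gaps as a whole had more Polδ counts relative to Polε counts than the longer gaps. The median log2 ratio over bins was 0.22 and 0.24 in short gaps and -0.04 and 0.00 in longer gaps in WT, 0.22 and 0.21 against -0.04 and -0.05 in 2×Polδ, and 0.22 and 0.19 against -0.03 and -0.03 in 4×Polδ. The difference was 0.25 ± 0.02 (SD), above 0 in 6 of 6 pairs (two-sided exact sign-flip permutation test, p = 0.03125, the smallest that 6 pairs allow), and 52 to 56 of the 60 short gaps lay above the median of the longer gaps. The 6 pairs are 3 genotypes in 2 experiments, so they are not 6 independent units. This comparison was chosen after the values had been seen. The lowest short gap in a pair had a ratio between -0.40 and -0.12 and the highest between 0.60 and 1.16.

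Distance to an origin moved with the ratio. In the longer gaps, bins over 25 kb from a strong origin had a median of -0.12 and -0.07 for WT, -0.12 and -0.12 for 2×Polδ, and -0.11 and -0.08 for 4×Polδ. Compared over bins at equal distance from an origin, within the range the short gaps cover, short gaps exceeded longer gaps by 0.13, above 0 in 6 of 6 pairs (exact p = 0.03125), and in bins of 34 to 40% GC by 0.24. With distance and GC both matched the difference was 0.12, and without chromosome III 0.22. The ratio of Polα to Polε counts gave 0.07 ± 0.08 with 5 of 6 pairs above 0 (exact p = 0.09375): 0.09 and 0.04 for WT, 0.19 and 0.14 for 2×Polδ, and -0.02 and 0.00 for 4×Polδ.

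**Figure D5:**
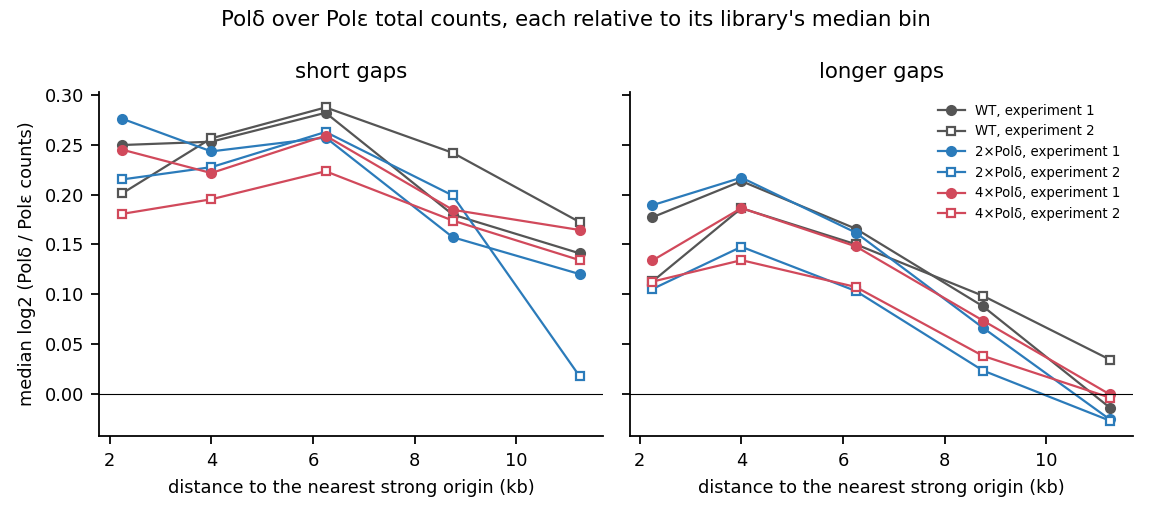
Median log2 ratio of Polδ to Polε total counts, each relative to its library's median bin (y axis), by distance to the nearest strong origin in kb (x axis), in short gaps (left) and longer gaps (right). Each line is 1 genotype and experiment; in all 5 distance classes the short gaps lie above the longer gaps in all 6 pairs of libraries, by 0.03 to 0.18.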

How the data were processed

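Pu-Seq reads were mapped by the authors with Bowtie2 to ASM294v2, per the labels, and ribonucleotide counts per strand and 300 bp bin were deposited without normalization. How mapped reads were filtered is not stated. The 27 samples form 18 libraries, since the 2 runs of experiment 1 were summed. Gene names and GC content came from ASM294v3, whose chromosomes need the same numbers of bins. Python 3.11.15 (numpy 2.4.6, pandas 2.3.3) served for tracks, lines and exact permutation tests. Scores, slopes and meeting points per gap were tested with limma 3.58.1 over all gaps. Windows (strand ratio) and bins (totals, TMM) with at least 10 counts in every library were tested with the quasi-likelihood test of edgeR 4.0.16 in R 4.3.3, and with DESeq2 1.42.0 as an alternative. P-values were adjusted by the Benjamini-Hochberg method, with a threshold of 0.05. Each test was tried on simulated data.

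The labels name the experiments, and deviations of libraries of the same polymerase and experiment correlated between strains (r of 0.63 to 0.91 over 2993 bins, 9 pairs), so experiments pair the libraries, and each fit was repeated with a block for the experiment. The study made one set of libraries by a modified protocol, and the labels do not name the experiment. If it is one of the 2 experiments, their spread includes the protocol. The study treats the experiments as biological repeats. Named gaps were the shortest, longest, steepest and flattest, those at the length limit, and those with the smallest adjusted p in each test; other called gaps and the genes named for their function were chosen after their values were seen. The members, lists and tests were chosen with earlier results of these data known.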

Additional observations from a re-analysis of the deposited data

Results flagged for a closer look

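In 7 cases the change from WT differed between 4×Polδ and 2×Polδ, by the test of 4×Polδ minus 2×Polδ itself. In the gap of 23.7 kb with cdc1 the mean score differed by 0.0608 and the meeting point by 2.20 kb, and in its window from 4014001 to 4017000 the strand ratio by 0.90 (log2). All values of this gap draw on the copied bins. Without them the mean score differed by 0.0230 (limma adjusted p = 0.144) and the meeting point by 0.656 kb (limma adjusted p = 0.0257). The meeting point differed by 0.870 kb in the gap with krp1, by -0.685 kb in the gap of 18.3 kb on chromosome III, by -0.804 kb in the gap with glt1 and by -0.440 kb in the gap with tom22. Over all features this contrast had 3 of 244 gaps called by score, 45 of 239 by meeting point and 29 of 4189 windows. By the running sum 0 of the called meeting points in short gaps remained.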

How the results depend on the processing

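Counts here are short gaps, or windows or bins in them, and brackets give the calls over all that were tested. The rule gave 28 short gaps with a limit of 20 kb and 38 with a step of at least 0.9. Slopes over the inner part of each gap were -0.0928 in WT, -0.109 in 2×Polδ and -0.0977 in 4×Polδ, where a trim of 3 kb gave -0.0844 and leaving out Polα -0.0889. The Polδ to Polε difference between centre and flank was 0.128 around the middle of the gap and -0.0395 as a median over gaps, and -0.0241 to 0.0966 with 1 experiment left out. That between short and longer gaps was 0.248 without WT and 0.240 to 0.259 with 1 experiment left out, where fewer pairs cannot pass the threshold. Calls of the mean score in 4×Polδ minus 2×Polδ were 7 with the replicate block (14 of 244), 0 without Polα (2 of 244) and 0 without the copied bins (2 of 244). In 2×Polδ minus WT they were 14 with the block (34 of 244) and 1 without Polα (2 of 244). In each contrast they changed with the experiments used. Calls of the meeting point in 4×Polδ minus 2×Polδ were 13 with the block (79 of 239) and 0 by the running sum (1 of 239). They were 0 by the running sum (6 of 239) and 0 without the copied bins (4 of 239) in 4×Polδ minus WT. In 2×Polδ minus WT they were 19 with the block (95 of 239), 0 by the running sum (6 of 239) and 8 without the copied bins (52 of 239). The calls of the meeting point, too, changed in each contrast with the experiments used. Called windows were 0 at 9 kb (16 of 1395) in 4×Polδ minus 2×Polδ, and 2 at 1.5 kb (92 of 8379) and 4 by DESeq2 (92 of 4189) in 4×Polδ minus WT. In 2×Polδ minus WT they were 1 at 1.5 kb (33 of 8379), 0 at 9 kb (16 of 1395) and 25 by DESeq2 (183 of 4189). With 1 left out they were 1 to 67. The 67 came without WT experiment 1 (616 of 4189), while without WT experiment 2 there was 1 (20 of 4189). Called bins in 4×Polδ minus 2×Polδ were 8 with the block (50 of 41859) and 7 by DESeq2 (43 of 41859). In this contrast and in 2×Polδ minus WT the called bins changed with the experiments used. In the cdc1 gap 4×Polδ minus WT was -0.0139 kb without the copied bins, 4×Polδ minus 2×Polδ stayed called at 0.656 kb and 2×Polδ minus WT was -0.670 kb, against 0.786 kb with them, and in the cox1101 gap 2×Polδ minus WT was 0.150 kb by the running sum. The cause of these changes was not tested. Slope calls with the block were 1 in 4×Polδ minus 2×Polδ (1 of 244), 0 in 4×Polδ minus WT (0 of 244) and 1 in 2×Polδ minus WT (1 of 244). The block changed no other count of calls by over 1.5 times apart from those given. Where 1 of 2 experiments was left out, the remaining value was taken to vary like the other genotypes. Slopes and track heights set against longer gaps or the other side kept direction and call under all alternatives run. The split by length favours that direction by itself.

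With 2 experiments per genotype the exact tests between genotypes cannot pass the threshold, and the lowest bin of a short gap held 16 counts in a library.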
